A study of Mus musculus with 6 samples.

Results

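The genes described here encode the enzymes that make, reuse and break down purine and pyrimidine nucleotides. They were taken as a list of 35 symbols, and 34 of them were found by symbol (GENCODE M21) among the 47643 genes of the table. Pnp, the purine nucleoside phosphorylase gene, matched no row by symbol and was not analysed here. All 34 had enough counts to be tested. The 6 libraries came from the intestine of male C57BL/6 mice aged 7 to 8 weeks, all injected with tamoxifen and fed a 60% high-fat diet for 2 weeks. In 3 libraries the genotype label was MycΔIE, ERT2, an intestinal deletion of the transcription factor gene Myc (called Myc-deleted here), and in 3 it was Mycfl/fl, with the gene floxed (called control). The labels name neither the promoter that drives the recombinase nor whether controls carry it, so loss of Myc and recombinase activity cannot be told apart in any difference below. They name no segment of the intestine, and the extraction protocol names liver.

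Purine nucleotides are built stepwise on phosphoribosyl pyrophosphate until inosine monophosphate (IMP) is formed, from which separate branches lead to AMP and GMP. Pyrimidines are built as a free ring that is then joined to phosphoribosyl pyrophosphate. Salvage enzymes bypass both routes by returning free bases and nucleosides to the nucleotide pool. The intestine takes up nucleosides and bases from food and shed cells, and its dividing crypt cells need deoxynucleotides. Myc is known to bind near many genes of de novo synthesis.

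Libraries held 9956938 to 11328693 expected counts, so that 3 counts corresponded to 0.265 to 0.301 CPM (counts scaled to a common library total). Myc stood at 5.86, 6.05 and 6.03 CPM in control libraries 1 to 3 and at 3.29, 4.37 and 5.81 CPM in Myc-deleted libraries 1 to 3, a difference that did not pass the test (edgeR adjusted p = 0.310). Myc-deleted library 3 lay close to the controls. The table has no counts by exon, and gene-level reads outside the deleted exons would remain, so this value is no check of that label. The enterocyte gene Vil1 stood at 3840 to 4503 CPM over all libraries and the ileal gene Fabp6 at 9567 to 12490 CPM. Of 12 ileal markers 1 rose and 1 fell (16.7%), with a median log2 fold change of 0.077. Of 8 tested markers of the proximal small intestine 2 rose and 1 fell (37.5%), against 8.17% of all tested genes. Their median was 0.92, with a range of -3.06 to 3.15, and the groups were apart for 5 of the 8 (62.5%). Of 16 enterocyte markers 13 had a positive fold change and 2 rose, Fabp2 and Apoa1 (12.5% called, against 8.17% of all tested genes). The groups were apart for 5 of the 16 (31.2%), all higher, against 27.8% of all tested genes. The summed level of the 16, in which the most abundant genes weigh most, was 45590 to 54340 CPM in controls. After deletion it was 57010 to 62890 CPM, without overlap. Of 16 leukocyte markers 13 had a negative fold change and none was called. The groups were apart for 2 of the 16 (12.5%), both lower, against 27.8% of all tested genes. Their summed level was 279.9, 325.5 and 314.5 CPM in control libraries 1 to 3. In Myc-deleted libraries 1 to 3 it was 264.2, 259.9 and 261.6 CPM, without overlap. The part of enterocyte content, leukocyte content and intestinal region in the nucleotide results below was not tested. Of 13 hepatocyte markers 7 were too low to test, 1 fell (Alb, at 1.89 to 3.20 CPM in controls and 0.0929 to 0.915 CPM after deletion) and none rose. The 6 tested summed to 254 to 334 CPM over all libraries, most of it from Cps1, a gene that enterocytes also express. Control library 2 stood apart in smooth muscle genes, with Myh11 at 25.9 CPM against 2.23 to 5.01 CPM elsewhere. All 17 interferon-response genes examined had a positive fold change, with a median log2 fold change of 1.93. Of these 3 rose (17.6%, against 8.17% of all tested genes). The groups were apart for 16 (94.1%), all higher, against 27.8% of all tested genes. Their summed level was 658 to 1034 CPM in the controls and 1814 and 1865 CPM in Myc-deleted libraries 1 and 2 in either order. Myc-deleted library 3 stood apart, at 3974 CPM. In bulk tissue, fewer cells of a type and less RNA per cell cannot be told apart.

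In the Myc-deleted mice 1 of the 34 genes rose, Adss, which starts the AMP branch, and 3 fell, namely Adk, Prps1 and Nme2. Over 12720 genes, edgeR's quasi-likelihood test (Benjamini-Hochberg adjusted p under 0.05) called 4.17% of all genes higher (530) and 4% lower (509), so the 4 calls among 34 genes (11.8%) stand beside a background of 8.17%. Adss and Adk passed in each of the 6 runs that left out 1 library. In simulated data this test made more false calls than its nominal share, which bears on calls near the threshold, such as Prps1 and Nme2. Without control library 2, 1 gene rose and 1 fell, and without Myc-deleted library 3, 1 rose and 2 fell. With upper-quartile scaling 435 genes were higher and 642 lower over the table, and among the 34 genes 1 was higher and 6 lower. The log2 fold change was negative for 24 of the 34 genes, against 50.2% of all genes, with a median of -0.14 against -0.0021. The groups did not overlap for 13 of the 34 genes (38.2%), 11 lower and 2 higher, where 27.8% of all genes were apart in the same way (13.7% lower and 14% higher). All fold changes below are Myc-deleted over control, fitted by edgeR, with the standard error (SE).

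**Figure D1:**
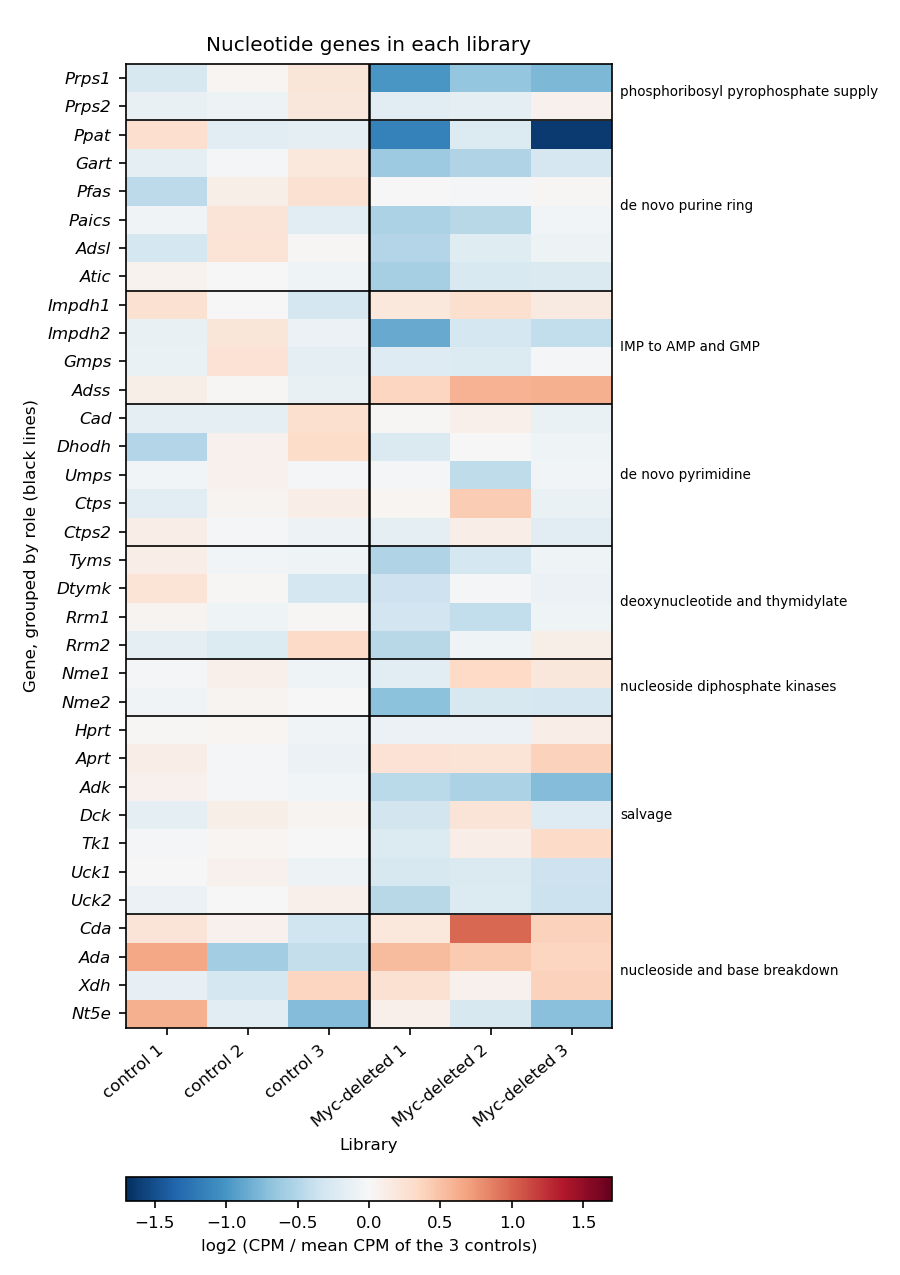
Level of each of the 34 genes in each library, as log2 of its CPM over the mean CPM of the 3 controls (colour), with genes in rows grouped by role and libraries in columns. Adss was higher and Adk, Prps1 and Nme2 were lower in each Myc-deleted library than in any control, while Ada and Nt5e varied most among the controls.

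**Figure D2:**
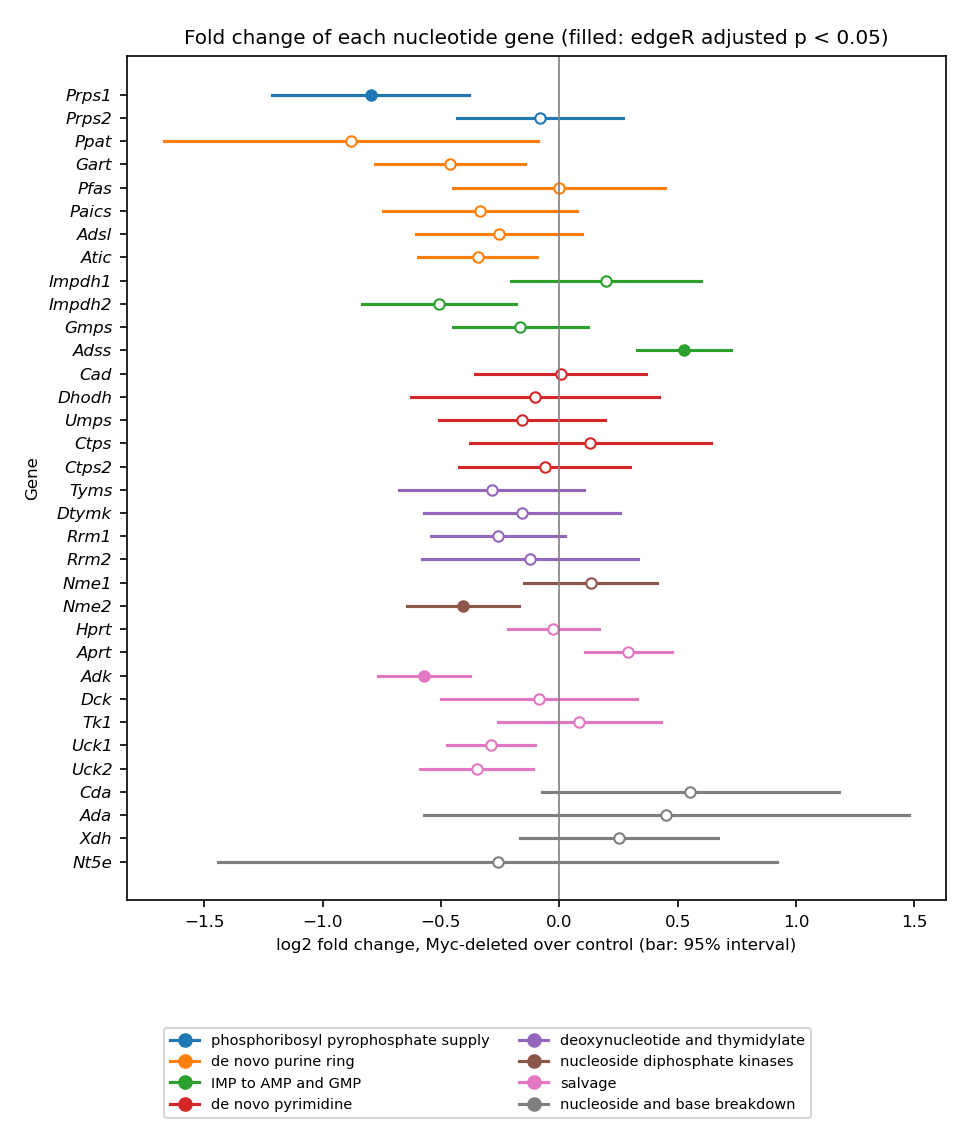
Log2 fold change of each gene (points) with its 95% interval (bars), coloured by role. Filled points mark the 4 genes with an edgeR adjusted p under 0.05, and each of the 5 pyrimidine synthesis genes (red) has an interval that includes 0.

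Phosphoribosyl pyrophosphate, the sugar donor of de novo and salvage routes, is made by the synthetases Prps1 and Prps2. Prps1 (ENSMUSG00000031432.3, chromosome X, 140456613 to 140476140, GRCm38) stood at 6.76, 8.39 and 9.40 CPM in control libraries 1 to 3 and at 4.12, 5.201 and 4.80 CPM in Myc-deleted libraries 1 to 3. All 3 Myc-deleted values were under the lowest control, and Prps1 fell by 0.80 on the log2 scale (SE 0.19, edgeR adjusted p = 0.0228). The call was lost without control library 2 (edgeR adjusted p = 0.0829), control library 3 (0.0902), Myc-deleted library 1 (0.0640) or Myc-deleted library 3 (0.0512). Prps1l3 is a similar gene on chromosome 12, and the counts of Prps1 were fractional in 3 libraries, as happens when reads are shared between genes. The sum of Prps1 and Prps1l3 was also lower (log2 fold change -0.68 ± 0.15 SE, edgeR adjusted p = 0.0147). Prps2 stood at 7.95, 8.21 and 9.91 CPM in controls and 7.69, 7.80 and 9.13 CPM after Myc deletion. Its groups overlapped, and it did not pass (-0.08 ± 0.16, edgeR adjusted p = 0.824).

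The 6 genes that build the purine ring all had negative fold changes, from -0.88 to -0.0023 with a median of -0.34, and none passed the test. Pfas, the nearest to 0, was positive with limma voom (0.024). Their summed level was 63.5, 71.6 and 68.8 CPM in controls and 47.5, 55.4 and 59.1 CPM after Myc deletion, so the groups did not overlap. Ppat, the amidotransferase of the committed step, stood at 3.48, 2.51 and 2.55 CPM in controls and 1.28, 2.42 and 0.923 CPM after Myc deletion. The groups did not overlap, by a margin of few counts. It had the most negative fold change of the 34 genes and did not pass (-0.88 ± 0.36, edgeR adjusted p = 0.175), with only 10 to 35 counts per library. Without Myc-deleted library 2 its log2 fold change was -1.37 (edgeR adjusted p = 0.0691).

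Gart, which catalyses several middle steps of the ring, stood at 12.6, 13.7 and 15.9 CPM in controls and 9.15, 9.94 and 11.6 CPM after Myc deletion. Atic, which closes the ring to IMP, stood at 23.8, 22.9 and 21.7 CPM against 15.5, 19.0 and 19.3 CPM. Both were lower in each Myc-deleted library than in any control, and neither passed (Gart -0.46 ± 0.15, edgeR adjusted p = 0.0754, and Atic -0.35 ± 0.12, 0.0936). Gart passed in the fit without a filter on low counts (edgeR adjusted p = 0.0386). That fit called more genes over the whole table, 850 higher and 756 lower. An opposite-strand gene shares 19.7% of the exon bases of Gart, and the sources used here do not say whether counting used strand. Paics, which carries out a pair of consecutive steps after Gart, had overlapping groups (-0.34 ± 0.19, edgeR adjusted p = 0.333). Paics and Ppat start 276 bases apart on opposite strands of chromosome 5, and their exons share 272 bases. Adsl, a lyase of both the ring and the AMP branch (-0.26 ± 0.16, edgeR adjusted p = 0.396), and Pfas, the ring's second amidotransferase (-0.0023 ± 0.21, 0.996), also overlapped between groups.

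At the IMP branch point the 4 genes did not move together. Adss (ENSMUSG00000015961.8, chromosome 1, 177762962 to 177796511) encodes adenylosuccinate synthase, which commits IMP to AMP. It stood at 78.5, 73.9 and 67.0 CPM in control libraries 1 to 3 and at 94.4, 110.0 and 111.6 CPM in Myc-deleted libraries 1 to 3. Every Myc-deleted library was above every control, and Adss rose 1.44-fold (log2 fold change 0.53 ± 0.09 SE, edgeR adjusted p = 0.00365). Leaving out 1 library gave log2 fold changes of 0.47 to 0.60 and adjusted p values of 0.00159 to 0.0249.

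On the GMP side, Impdh2, the main IMP dehydrogenase of dividing cells, stood at 29.8, 37.8 and 30.3 CPM in controls and 18.0, 26.5 and 24.5 CPM after Myc deletion. The groups did not overlap and the difference did not pass (-0.51 ± 0.15, edgeR adjusted p = 0.0590). It passed without Myc-deleted library 2 (-0.63, edgeR adjusted p = 0.0405), with upper-quartile scaling (0.0491) or with DESeq2 (0.0374). It also passed without a filter on low counts (edgeR adjusted p = 0.000273), a fit that called more genes over the whole table. Impdh1, its isozyme, stood at 7.35, 6.14 and 5.01 CPM in controls and 6.95, 7.43 and 6.83 CPM after Myc deletion. The groups of Impdh1 overlapped (0.20 ± 0.19, edgeR adjusted p = 0.595). Gmps, which makes GMP from the product of Impdh1 and Impdh2, overlapped too (-0.16 ± 0.13, edgeR adjusted p = 0.517).

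The sequence CACGTG is a well-known binding motif of Myc with its partner Max. It reads the same on both strands, and no other motif was searched. RefSeq windows from 250 bases before to 50 bases after the transcript start (GRCm38.p6) were given for 32 of the 35 symbols, and 6 of these genes (18.8%) held CACGTG, against 8.09% of 27025 genes. Counted by window, 7 of 40 member windows (17.5%) held it, against 7.15% of 32851 windows. The genes were Atic, Paics, Impdh2, Tyms, Dtymk and Nme1, and none of them passed the test. No window of the 7 salvage genes, of the 4 pyrimidine synthesis genes with a window, or of Adss and Prps1 held these letters. A match is a description and not a site of binding. The background took in every gene with a window, whether or not it was among the 12720 tested here. All 34 members found in the table were tested, so the compared sets are unlike. The share among tested genes alone was not computed. The windows below are shown because they hold the motif (Atic, Paics, Impdh2, Tyms and Nme1) or belong to the gene that rose (Adss). Each is written 5′ to 3′ on the strand of the gene, with CACGTG in capitals.
Atic, chr1:71556906-71557205, plus strand: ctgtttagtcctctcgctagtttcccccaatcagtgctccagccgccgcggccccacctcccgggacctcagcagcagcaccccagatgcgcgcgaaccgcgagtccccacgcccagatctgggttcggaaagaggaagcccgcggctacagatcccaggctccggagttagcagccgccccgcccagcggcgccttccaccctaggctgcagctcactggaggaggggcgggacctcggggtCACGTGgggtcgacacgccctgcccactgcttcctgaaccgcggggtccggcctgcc
Paics, chr5:76951052-76951351, plus strand: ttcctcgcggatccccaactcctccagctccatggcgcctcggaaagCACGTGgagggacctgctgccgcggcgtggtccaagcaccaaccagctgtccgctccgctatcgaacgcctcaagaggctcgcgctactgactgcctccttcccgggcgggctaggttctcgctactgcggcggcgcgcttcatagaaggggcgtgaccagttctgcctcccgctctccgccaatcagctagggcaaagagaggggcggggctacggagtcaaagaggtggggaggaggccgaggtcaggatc
Impdh2, chr9:108560186-108560485, plus strand: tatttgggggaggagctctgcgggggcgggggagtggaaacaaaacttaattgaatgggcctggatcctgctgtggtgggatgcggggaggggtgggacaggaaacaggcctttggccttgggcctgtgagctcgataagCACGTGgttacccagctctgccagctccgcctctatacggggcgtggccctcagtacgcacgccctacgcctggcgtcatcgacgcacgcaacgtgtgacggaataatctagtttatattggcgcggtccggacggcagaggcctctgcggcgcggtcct
Tyms, chr5:30073576-30073875, minus strand: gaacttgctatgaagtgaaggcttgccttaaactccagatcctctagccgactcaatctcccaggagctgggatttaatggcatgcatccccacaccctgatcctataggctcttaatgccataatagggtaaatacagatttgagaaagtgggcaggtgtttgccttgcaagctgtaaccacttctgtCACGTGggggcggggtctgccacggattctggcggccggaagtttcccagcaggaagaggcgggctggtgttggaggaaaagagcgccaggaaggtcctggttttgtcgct
Nme1, chr11:93968223-93968522, minus strand: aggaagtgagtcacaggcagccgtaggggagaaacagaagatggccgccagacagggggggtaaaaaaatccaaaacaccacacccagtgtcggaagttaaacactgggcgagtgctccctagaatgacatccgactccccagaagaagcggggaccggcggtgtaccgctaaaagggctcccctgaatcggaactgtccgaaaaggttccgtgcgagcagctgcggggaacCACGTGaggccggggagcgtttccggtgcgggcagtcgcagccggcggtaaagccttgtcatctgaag
Adss, chr1:177796460-177796759, minus strand: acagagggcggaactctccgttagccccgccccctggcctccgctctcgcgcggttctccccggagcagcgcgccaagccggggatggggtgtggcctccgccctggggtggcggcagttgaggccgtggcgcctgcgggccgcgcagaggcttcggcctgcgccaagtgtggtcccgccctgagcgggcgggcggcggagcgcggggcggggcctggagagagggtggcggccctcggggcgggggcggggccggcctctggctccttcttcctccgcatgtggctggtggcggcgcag
The motif began 7 bases before the start in Atic, 203 in Paics, 110 in Impdh2, 61 in Tyms and 18 in the Nme1 window shown.

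The mRNAs of the pyrimidine synthesis genes did not differ detectably between the groups. None of these 5 genes passed, the groups overlapped for each of them, and their median log2 fold change was -0.06. Cad, which carries the opening activities of the pathway and is a textbook Myc target, stood at 7.85, 7.87 and 10.5 CPM in controls and 8.88, 9.29 and 8.12 CPM after Myc deletion. Its log2 fold change was 0.0056 ± 0.17 (edgeR adjusted p = 0.989), with a 95% interval from -0.35 to 0.37. Umps, which makes uridine monophosphate, stood at 8.85, 9.68 and 8.99 CPM against 9.06, 6.78 and 8.86 CPM (-0.16 ± 0.16, edgeR adjusted p = 0.631). Dhodh, the mitochondrial dehydrogenase of the route, had a log2 fold change of -0.10 ± 0.24 (edgeR adjusted p = 0.853).

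Ctps and Ctps2 are the CTP synthases. Ctps stood at 3.18, 3.72 and 3.88 CPM in controls and 3.66, 4.83 and 3.32 CPM after Myc deletion (0.13 ± 0.23, edgeR adjusted p = 0.801). Ctps2 stood at 8.35, 7.52 and 7.25 CPM against 6.95, 8.36 and 6.83 CPM (-0.06 ± 0.17, edgeR adjusted p = 0.871). At 31 to 112 counts per library, the 95% interval was -0.63 to 0.42 on the log2 scale for Dhodh, -0.51 to 0.19 for Umps, -0.38 to 0.64 for Ctps and -0.42 to 0.30 for Ctps2, so differences within these bounds remain possible.

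The 4 genes of deoxynucleotide and thymidylate supply had negative fold changes of -0.29 to -0.12, and none passed. Tyms, thymidylate synthase, stood at 7.75, 7.00 and 6.84 CPM in controls and 5.03, 5.85 and 6.83 CPM after Myc deletion. Rrm1, the large subunit of ribonucleotide reductase, stood at 15.5, 14.3 and 15.1 CPM against 11.99, 11.2 and 14.2 CPM. The groups of Tyms and Rrm1 did not overlap, by a small margin in each, and neither passed (Tyms -0.29 ± 0.18, edgeR adjusted p = 0.396, and Rrm1 -0.26 ± 0.13, 0.272).

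Rrm2, the S-phase subunit of the reductase, stood at 6.46, 6.14 and 9.09 CPM in controls and 5.22, 6.87 and 7.75 CPM after Myc deletion and overlapped (-0.12 ± 0.21, edgeR adjusted p = 0.791). Dtymk, thymidylate kinase, overlapped as well (-0.16 ± 0.19, edgeR adjusted p = 0.693). Myc-deleted library 1 held the lowest level of Tyms, Dtymk and Rrm2. The summed level of 18 proliferation markers was 282 to 311 CPM in the controls and 234, 288 and 303 CPM in Myc-deleted libraries 1 to 3, and none of the 18 passed. The part of proliferating cells in these values was not tested.

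Nucleoside diphosphate kinases equalise the phosphates among nucleotides. Nme2 (chromosome 11, 93949814 to 93956259) stood at 82.2, 88.2 and 85.7 CPM in controls and 52.4, 70.7 and 70.0 CPM after Myc deletion. All 3 Myc-deleted values were under the lowest control, and Nme2 fell by 0.41 on the log2 scale (SE 0.11, edgeR adjusted p = 0.0375). Nme1, its neighbour, stood at 22.8, 24.6 and 22.0 CPM in controls and 20.4, 29.3 and 26.5 CPM after Myc deletion and did not pass (0.13 ± 0.13, edgeR adjusted p = 0.607). Nme2 lost its call without control library 1 (edgeR adjusted p = 0.0765), 2 (0.137) or 3 (0.1003) or Myc-deleted library 1 (0.0636), and with limma voom (0.0526). The readthrough gene Gm20390 shares 48.9% of the exon bases of Nme2 and 12.5% of those of Nme1, and summing the 3 genes gave a log2 fold change of -0.28 ± 0.12 (edgeR adjusted p = 0.200).

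**Figure D3:**
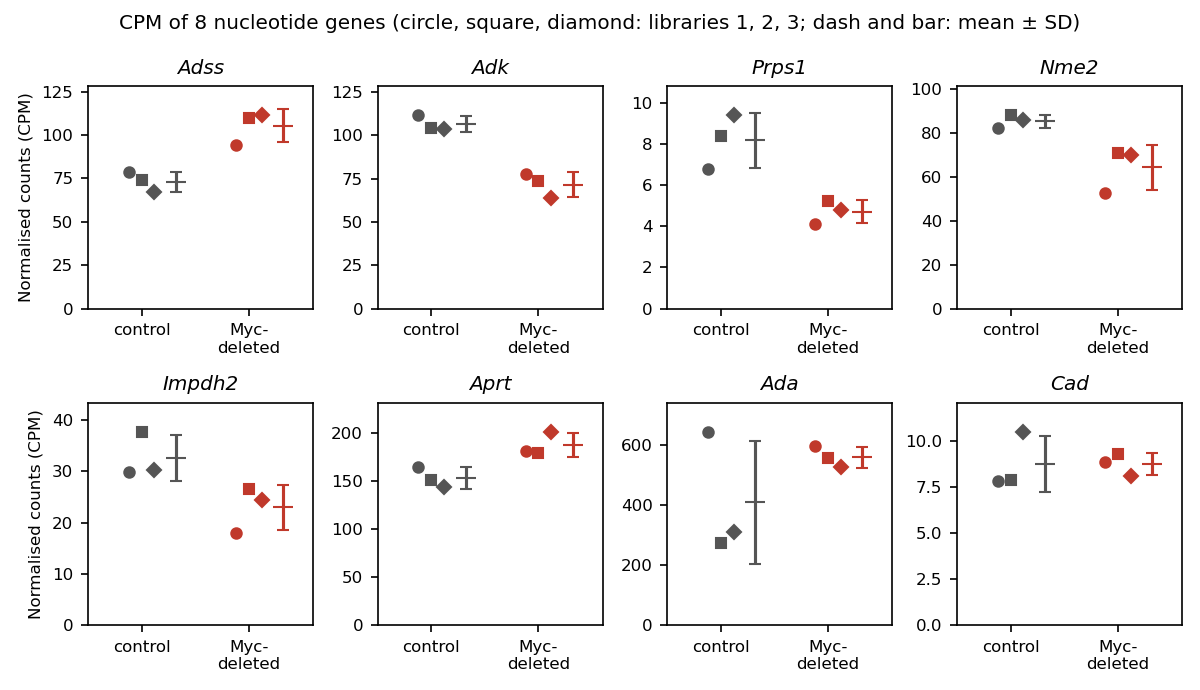
CPM of 8 nucleotide genes in control (grey) and Myc-deleted (red) libraries, with the mean and SD beside each group of 3. Groups are apart for Adss, Adk, Prps1, Nme2, Impdh2 and Aprt, while control library 1 of Ada lies above the Myc-deleted libraries and Cad overlaps.

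Salvage was represented by 7 genes, of which 1 fell, none rose and 6 did not pass (14.3% called, against 8.17% of all genes). Adk (ENSMUSG00000039197.9, chromosome 14, 21052574 to 21448569) encodes adenosine kinase, which turns adenosine into AMP. It stood at 111.7, 104.0 and 103.4 CPM in control libraries 1 to 3 and at 77.7, 73.4 and 63.7 CPM in Myc-deleted libraries 1 to 3. All 3 Myc-deleted values were under the lowest control, and Adk was 1.49-fold lower (log2 fold change -0.57 ± 0.09 SE, edgeR adjusted p = 0.00176). Leaving out 1 library gave log2 fold changes of -0.63 to -0.50 and adjusted p values of 0.00145 to 0.0115.

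Aprt, which salvages adenine to the same product, stood at 164.8, 150.4 and 143.1 CPM in controls and 181.0, 179.0 and 201.2 CPM after Myc deletion. It was higher in each Myc-deleted library than in any control and did not pass (0.29 ± 0.08, edgeR adjusted p = 0.0512). It passed without a filter on low counts (edgeR adjusted p = 0.0195), a fit that called more genes over the whole table. Hprt, which salvages hypoxanthine and guanine, stood at 52.0, 52.1 and 49.2 CPM in controls and 47.7, 47.6 and 55.5 CPM after Myc deletion. The groups of Hprt overlapped, with a log2 fold change of -0.02 ± 0.09 (edgeR adjusted p = 0.905) and a 95% interval from -0.22 to 0.17.

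The uridine-cytidine kinases were both lower in each Myc-deleted library than in any control. Uck1 stood at 44.6, 47.2 and 42.3 CPM in controls and 37.0, 37.8 and 34.97 CPM after Myc deletion, and Uck2 at 21.9, 23.5 and 24.9 CPM against 16.9, 19.97 and 18.3 CPM. Neither passed (Uck1 -0.29 ± 0.09, edgeR adjusted p = 0.0565, and Uck2 -0.35 ± 0.11, 0.0731), but both did with upper-quartile scaling (0.0337 and 0.0482). Tk1, the S-phase thymidine kinase, stood at 9.94, 10.5 and 10.2 CPM in controls and 8.69, 11.1 and 12.7 CPM after Myc deletion. Tk1 (0.08 ± 0.16, edgeR adjusted p = 0.811) and the deoxycytidine kinase gene Dck (-0.09 ± 0.19, 0.844) had overlapping groups.

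Per kilobase of exon, the median salvage mRNA was more abundant than the median de novo mRNA in both groups, with overlap between the lists. The median over the 15 de novo genes (ring, IMP branches and pyrimidines) was 2.35 CPM per kilobase in controls and 2.08 after Myc deletion, and over the 7 salvage genes it was 12.5 and 8.39. In the controls Aprt stood at 94.6 ± 6.82 CPM per kilobase (SD, n = 3), Hprt at 39.7 ± 1.26, Uck1 at 16.3 ± 0.892 and Adk at 12.5 ± 0.544. The ring genes reached at most 2.85 ± 0.132 CPM per kilobase (Atic), and Adss, at 16.1 ± 1.28, was the most abundant de novo gene. The salvage genes Dck (1.85) and Tk1 (1.96) lay below the de novo median. Uck1 and Adss did not differ beyond their spread in this order. Lengths came from GENCODE M21, which may not be the annotation the authors used. They count every base in any annotated exon of a gene, 1289 for Hprt, 8526 for Adk and 7985 for Atic. Such a length can exceed that of the main transcript by an unlike factor in each gene. The order between genes and lists therefore depends on this measure.

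The median fold change was negative for de novo genes and for salvage genes. Of the 15 de novo genes 1 rose, none fell and 11 had a negative fold change, with a median of -0.16. Of the 7 salvage genes 1 fell, none rose and 5 were negative, with a median of -0.086. The median over all tested genes was -0.0021. Calls made up 6.67% of the de novo genes and 14.3% of the salvage genes, against 8.17% of all tested genes. The salvage median was 0.012 without Myc-deleted library 1, -0.27 without Myc-deleted library 2 and -0.16 without control library 1. It was -0.025 with Ada and Cda added, which act at the border of salvage and breakdown. The de novo median was -0.091 without control library 2. The mean log2 CPM of the de novo genes was 3.32, 3.46 and 3.40 in controls and 3.13, 3.33 and 3.25 after Myc deletion, where Myc-deleted library 2 overlapped the controls. For the salvage genes it was 5.12, 5.16 and 5.12 in controls and 4.91, 5.06 and 5.02 after Myc deletion, without overlap. Summed CPM, in which the most abundant genes weigh most, overlapped between the groups for both lists. Its mean for the salvage genes was 395.6 ± 15.4 CPM in controls and 381.3 ± 9.61 CPM after Myc deletion (SD, n = 3). For the de novo genes it was 232.5 ± 11.2 CPM against 238.8 ± 20.2 CPM, slightly higher after deletion. The separation of the salvage groups therefore depends on the measure. Within de novo synthesis the mean log2 CPM of the purine ring was 3.14, 3.30 and 3.25 against 2.71, 2.97 and 2.90. That of the pyrimidine genes was 2.55, 2.70 and 2.81 against 2.62, 2.73 and 2.59. The purine ring was therefore lower in every Myc-deleted library, while the pyrimidine genes overlapped, and the difference between these lists was not tested.

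None of the 4 breakdown genes with counts passed, and their groups overlapped. Ada, adenosine deaminase, was the most abundant of the 34 genes per kilobase, at 205 ± 103 CPM per kilobase in the controls (SD, n = 3). It stood at 646, 273 and 310 CPM in control libraries 1 to 3 and at 597, 556 and 526 CPM in Myc-deleted libraries 1 to 3, so control library 1 was above all others. With all libraries the log2 fold change was 0.45 ± 0.38 (edgeR adjusted p = 0.581), and without control library 1 it was 0.94 (0.000591). Nt5e, the surface enzyme that makes adenosine from AMP, was also highest in control library 1, with 129.6, 74.9 and 51.0 CPM in controls and 90.7, 70.7 and 51.9 CPM after Myc deletion (-0.26 ± 0.44, edgeR adjusted p = 0.799).

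Xdh, which forms uric acid, stood at 333.5, 298 and 473 CPM in controls and 442.5, 388 and 483 CPM after Myc deletion (0.25 ± 0.18, edgeR adjusted p = 0.478). Without control library 3 it was higher in the Myc-deleted mice (0.47, edgeR adjusted p = 0.0300). Cda, cytidine deaminase, stood at 39.4, 35.4 and 26.7 CPM against 38.4, 66.2 and 44.5 CPM, with Myc-deleted library 2 the highest (0.55 ± 0.25, edgeR adjusted p = 0.283). It passed with DESeq2 (adjusted p = 0.0413). It also passed without a filter on low counts (edgeR adjusted p = 0.0170), a fit that called more genes over the whole table.

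Several steps are shared by a pair of isozymes, and the ratio within each of 5 pairs was compared by library. The Prps1 to Prps2 ratio was 0.854, 1.02 and 0.949 in controls and 0.547, 0.675 and 0.535 after Myc deletion. That of Impdh1 to Impdh2 was 0.251, 0.167 and 0.170 against 0.392, 0.286 and 0.285, and that of Nme1 to Nme2 was 0.279, 0.281 and 0.258 against 0.391, 0.416 and 0.380. In these 3 pairs every Myc-deleted library lay outside the range of the controls, with differences in log2 ratio of -0.69, 0.72 and 0.54. A two-sided exact permutation test gave p = 0.1 for each, the smallest that 3 against 3 can give, and 0.167 after adjustment over the 5 pairs. Counts were fractional in 3 libraries for Prps1, in 5 for Impdh2 and in all 6 for Nme1 and Nme2. That happens when reads are shared between genes, so these 3 ratios can depend on how such reads were divided. Ctps to Ctps2 (difference 0.18, exact p = 0.5, adjusted p = 0.6) and Uck1 to Uck2 (0.06, exact p = 0.6, adjusted p = 0.6) overlapped between groups.

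**Figure D4:**
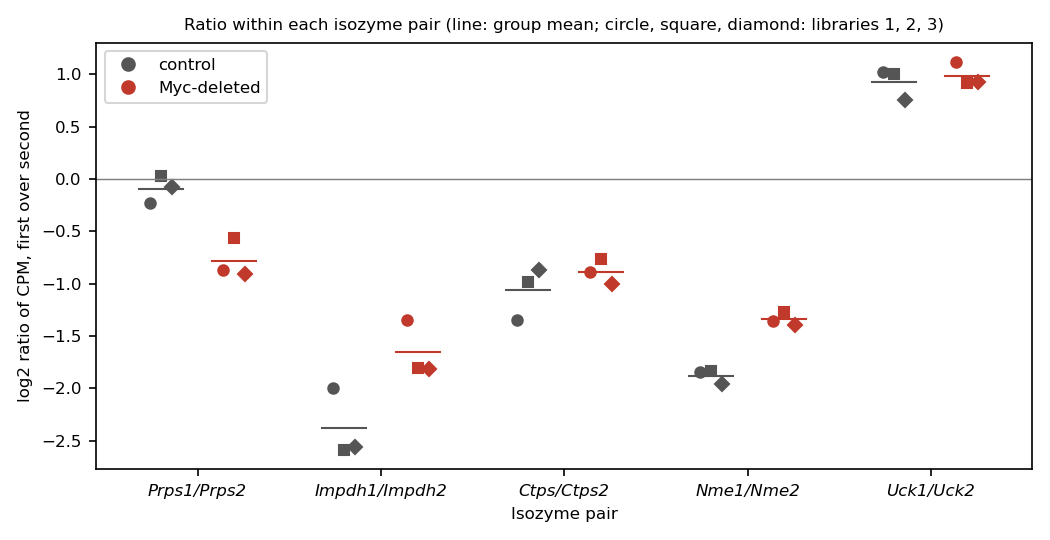
Log2 ratio of CPM within each of 5 isozyme pairs in control (grey) and Myc-deleted (red) libraries, with a line at each group mean. The ratio was lower in each Myc-deleted library for Prps1/Prps2 and higher for Impdh1/Impdh2 and Nme1/Nme2, and the other pairs overlap.

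A list of 72 other genes of nucleotide metabolism was examined beside these, of which 55 were tested, 3 rose and 2 fell. This share of 9.09% stands beside the background of 8.17%, and the median log2 fold change was 0.08. Among 7 tested genes of deoxynucleotide upkeep, Samhd1, a hydrolase of deoxynucleotides, rose and Dctpp1, the dCTP pyrophosphatase, fell. These 2 calls were 28.6% of that small list. Samhd1 stood at 66.9, 63.5 and 74.1 CPM in controls and 100, 103.5 and 143.7 CPM after Myc deletion (0.76 ± 0.14, edgeR adjusted p = 0.00868). It was highest in Myc-deleted library 3, the library with the highest interferon-response level, and it passed without any 1 library (edgeR adjusted p = 0.00350 to 0.0493). Its relation to that level was not tested. Dctpp1 stood at 8.45, 9.68 and 8.89 CPM against 5.49, 5.85 and 6.55 CPM (-0.60 ± 0.16, edgeR adjusted p = 0.0420). Dctpp1 passed in none of the 6 runs without a library (edgeR adjusted p = 0.0502 to 0.151).

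Among 14 tested nucleotidases 2 rose and none fell (14.3% called, against 8.17% of all genes). Enpp3, an ectonucleotidase, stood at 3.58, 6.14 and 6.03 CPM in controls and 8.88, 10.9 and 11.4 CPM after Myc deletion (0.98 ± 0.21, edgeR adjusted p = 0.0121) and passed in each run without a library. Entpd7, a nucleoside triphosphatase, stood at 59.8, 52.5 and 81.6 CPM against 107, 98.4 and 92.1 CPM (0.62 ± 0.15, edgeR adjusted p = 0.0414). It kept its call without control library 3 and lost it without control library 1 (edgeR adjusted p = 0.132) or 2 (0.0854) or Myc-deleted library 1 (0.139), 2 (0.132) or 3 (0.0957). The counts of Entpd7 were fractional in all 6 libraries.

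Of 14 tested genes listed under deaminases, phosphorylases and catabolism, 1 fell and none rose (7.14% called, against 8.17% of all genes). That gene, Prpsap1, is not catabolic. Its product associates with the phosphoribosyl pyrophosphate synthetases. Prpsap1 stood at 142, 141 and 146 CPM in controls and 104, 109.6 and 114 CPM after Myc deletion. It fell by 0.39 on the log2 scale (SE 0.07, edgeR adjusted p = 0.00667) and passed in each run without a library. Pnp2, a paralog of Pnp that shares its locus, stood at 187.5, 165 and 169 CPM against 142.6, 145 and 148 CPM and did not pass (-0.26 ± 0.08, edgeR adjusted p = 0.0626). Its counts were fractional in every library, and it passed with upper-quartile scaling (edgeR adjusted p = 0.0310).

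None of 13 tested kinases and none of 7 tested transporters and receptors passed. Cmpk2, a mitochondrial nucleotide kinase induced by interferon, stood at 52.97, 37.3 and 38.8 CPM in controls and 73.8, 85.5 and 141.5 CPM after Myc deletion, with Myc-deleted library 3 the highest (1.22 ± 0.31, edgeR adjusted p = 0.101). Without that library it passed (0.89, edgeR adjusted p = 0.0110), as it did with DESeq2 (0.00476) and limma voom (0.0126). Slc28a2, the concentrative purine nucleoside transporter, stood at 202.6, 125 and 133 CPM against 276, 251 and 238 CPM, higher in every Myc-deleted library (0.73 ± 0.19, edgeR adjusted p = 0.0709). Control library 1 was the highest control, as for Ada and Nt5e, and without it the log2 fold change was 0.98 (edgeR adjusted p = 0.000388). Slc28a2 also passed with DESeq2 (adjusted p = 5.12e-05) and limma voom (0.0186). Without a filter on low counts, a fit that called more genes over the whole table, its edgeR adjusted p was 5.31e-09 at a log2 fold change of 0.73.

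**Figure D5:**
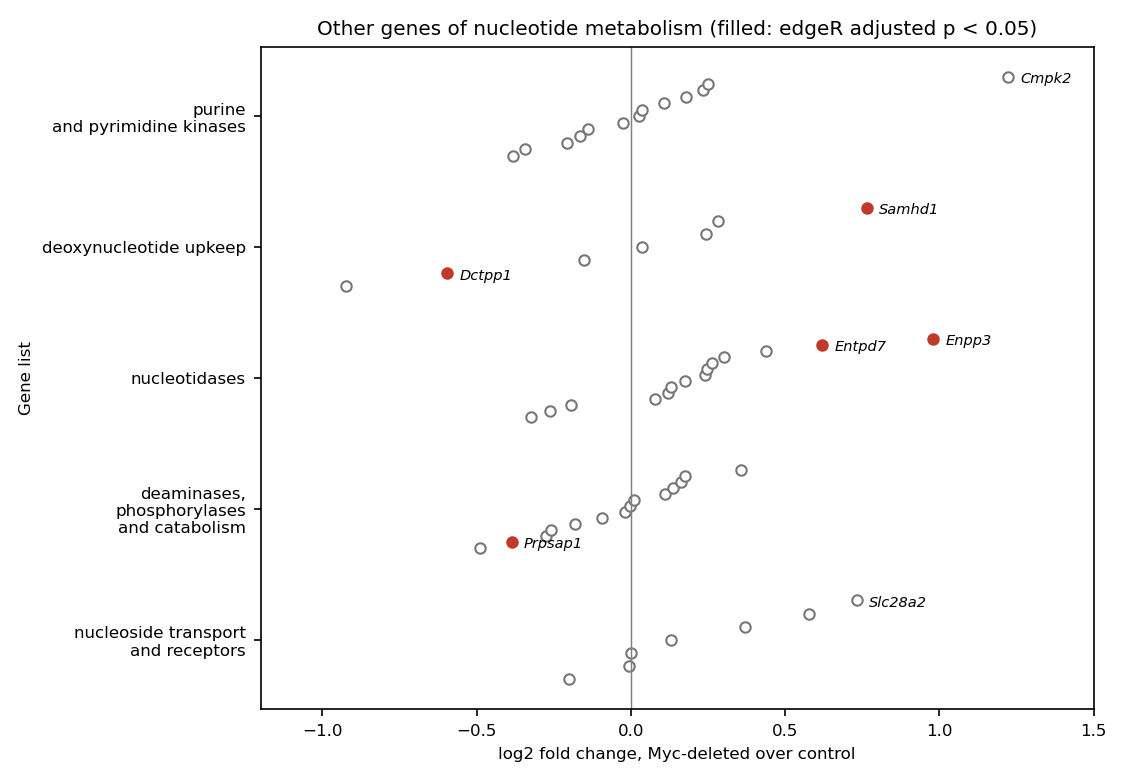
Log2 fold change of 55 other genes of nucleotide metabolism, in rows by list, with filled points for an edgeR adjusted p under 0.05. Samhd1, Enpp3 and Entpd7 lie to the right and Dctpp1 and Prpsap1 to the left, and Cmpk2 and Slc28a2 did not pass.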

How the data were processed

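Messenger RNA was sequenced in 3 control and 3 Myc-deleted libraries with a stranded kit, per the labels. The deposited table holds expected counts for each gene, without scaling, and the submitters' processing notes name cutadapt, STAR, Picard, RSEM and mm10. Their versions and the gene annotation are not given in those sources. Symbols were matched by Ensembl identifier to GENCODE M21 (99.1% of genes).

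Expected counts were rounded and fitted over the whole table with edgeR 4.0.16 in R 4.3.3 (filterByExpr with a minimum count of 10 and total of 15, TMM scaling, robust quasi-likelihood F-test, Benjamini-Hochberg adjustment, threshold 0.05). SE was derived from the F statistic and the log2 fold change. Log2 CPM used a prior count of 2. Alternatives included limma 3.58.1 (voom) and DESeq2 1.42.0. The procedure was tested on simulated data, where the share of false calls ran above the nominal level, so calls near the threshold are less certain than their adjusted p. The labels do not say that replicates are separate mice beyond their numbers, so p-values measure the spread between libraries, and floors and single counts cover counting error only.

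Members and lists were chosen with earlier results of these data known. Named were all members, pathway genes past the threshold, and, chosen after their values were seen, Cmpk2, Slc28a2, Pnp2, Upp1 and the markers given for context.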

Additional observations from a re-analysis of the deposited data

How the results depend on the processing

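The de novo median was negative under every setting run, from -0.22 to -0.091. Leaving out 1 library gave 232 to 491 genes higher and 271 to 511 lower over the table (lowest without control library 2, and 323 higher without Myc-deleted library 2), 1 to 2 members higher and 1 to 4 lower, 2 to 4 other pathway genes higher and 1 to 2 lower, and salvage medians of -0.27 to 0.012. Without a filter on low counts (only genes with no counts left out) 850 genes were higher and 756 lower, against 530 and 509 in the main fit. In the unfiltered fit 3 members were higher and 5 lower, and 5 other pathway genes were higher. DESeq2 called 2 members higher, and 5 other pathway genes higher and 1 lower, and limma voom called 5 of the latter higher. Upper-quartile scaling called 6 members lower. edgeR fitted without robust estimation, chosen after seeing the data, called 5 other pathway genes higher and left Nme2 at an adjusted p of 0.0576. The salvage median was -0.025 with Ada and Cda. The cause of these shifts was not tested.

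Fold changes that turned sign belonged to genes that did not pass. That of Cad was -0.035 with upper-quartile scaling and -0.078 to 0.16 in the leave-one-out runs, and that of Pfas was 0.024 with limma voom, 0.014 with the replicate block and -0.18 to 0.14 in the leave-one-out runs. In those runs Prps2 ranged from -0.17 to 0.021, Dhodh from -0.30 to 0.075, Rrm2 from -0.26 to 0.070, Hprt from -0.11 to 0.012, Dck from -0.27 to 0.013, Ctps from -0.050 to 0.23, Tk1 from -0.053 to 0.22, Nt5e from -0.52 to 0.17 and Upp1, a uridine phosphorylase, from -0.046 to 0.59.

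Groups share replicate numbers, but deviations of same-numbered libraries correlated at 0.0261, 0.0524 and 0.0189, so the numbers were not taken to pair the samples, although every library correlated best with its own number. With the number as a block 576 genes were higher and 499 lower, 1 member was higher and 4 lower, Impdh2 passing (adjusted p = 0.0165), and 4 other pathway genes were higher, Slc28a2 among them (0.00204), and 1 lower, Dctpp1 not passing (0.0608). The copies of Prps1 and Nme2 were summed after seeing the data. Ppat had only 10 to 35 counts per library, and its 95% interval ran from -1.67 to -0.09.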
